A study of Mus musculus with 15 samples.

Results

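The 38 genes described here encode enzymes that oxidise pyruvate and fatty acids, nearly all of them in the mitochondrion, with 2 regulators of such genes. They were taken by name from 2 pathways: 19 pyruvate and citric acid cycle enzymes, 17 enzymes of fatty acid beta-oxidation, and the regulators Ppara and Ppargc1a. The deposited table lists 23352 genes, of which 11945 were tested. All 38 genes are listed in it, and 35 of them were tested. Cpt1b, Ppara and Ppargc1a lay below the limit for testing, an FPKM of 1 in at least 3 libraries.

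RNA was measured in C2C12 cells, a mouse line of skeletal muscle precursors (myoblasts), after transduction with lentiviral constructs that change the activity of MLX. There were 5 groups of 3 libraries, 15 in all. The MLX-WT group carried a construct with wild-type MLX, the MLX-DN group one with a dominant-negative form, and the MLX shRNA group one with a hairpin against Mlx. One control group, called GFP control here, carried a vector that expressed GFP alone (the growth protocol calls it an empty vector), and the other, NT shRNA, carried a non-targeting hairpin. All groups share the cell line and lentiviral delivery, and the labels name neither the promoter of the constructs, the number of clones nor the culture medium. MLX-WT and MLX-DN were compared with the GFP control and MLX shRNA with NT shRNA, each the control of the same type of construct, here called the group's own control. Whether the libraries within a group are separate cultures is not stated in the labels, and the p-values therefore reflect the variation among these libraries alone, which may be technical.

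MLX binds E-box-type DNA elements together with MondoA or ChREBP, leucine zipper proteins that act in the response to glucose. In the mitochondrion, pyruvate dehydrogenase turns pyruvate into acetyl-CoA, the citric acid cycle oxidises acetyl-CoA, and beta-oxidation shortens fatty acids to acetyl-CoA. Muscle draws on both routes. Entry of long-chain fatty acids through carnitine palmitoyltransferase 1 is held back by malonyl-CoA, a product made from carbohydrate-derived carbon.

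Depths, estimated from the steps between low values, were 37.0 to 82.5 M reads, and libraries of a group correlated at r = 0.998 to 0.999. FPKM is a level scaled to transcript length and to the reads of a library. At these depths 3 reads on 2000 bases are worth 0.0182 to 0.0406 FPKM, which covers counting error only. Mlx itself stood at 16.6, 17.6 and 17.1 FPKM in the GFP control libraries and 16.3, 17.1 and 17.9 in NT shRNA. It was at 655, 632 and 645 under MLX-WT, 384, 399.9 and 398 under MLX-DN and 2.88, 3.95 and 2.80 under MLX shRNA, as labelled. The labels call the cells myoblasts, and the myoblast genes Des (1056 to 1190 FPKM as group means) and Myod1 (61.1 to 94.8) were present, but so were sarcomere genes such as Acta1 (2306 to 3040). Other listed myoblast genes were Cdh15 (134 to 181.5), Ncam1 (67.8 to 105) and Vcam1 (10.02 to 16.9). Myf5 (3.76 to 12.9), Pax7 (0.872 to 4.22) and Msc (0.228 to 7.58) completed the list. The summed FPKM of 12 genes of differentiated muscle was 8793 to 8903 in the GFP control and 9247 to 9454 with MLX-WT. It was 7394 to 7621 with MLX-DN, 6268 to 6453 in NT shRNA and 8153 to 8752 with MLX shRNA. Most of this sum came from Acta1, Tnnt3, Tnnc2 and Myh3, and its members differed in direction. With MLX-DN, Myog was at 706 FPKM (445 in the GFP control) and Ckm at 165 (360 in the GFP control). The sum of 5 fibroblast genes, mostly Col1a1, was 450.0 to 459 in the GFP control and 218 to 235 in NT shRNA. It was 157 to 159 under MLX-WT, 43.8 to 48.7 under MLX-DN and 48.1 to 49.6 under MLX shRNA. Its members differed in their order of groups. Col1a1 had its highest group mean in the GFP control, Dcn in NT shRNA and Pdgfra with MLX-WT. Col1a1, Dcn and Pdgfra were all lower with MLX-DN and MLX shRNA than in both controls. Tcf21 was listed at 0 in every group mean, and 5 adipocyte genes summed to at most 0.519 FPKM. Of 4 macrophage genes, Ptprc stood at 4.55 FPKM with MLX-DN and at 0.00330 or less elsewhere, and Emr1 was listed at 0. Cd68 had its lowest mean with MLX-DN (0.871, against 1.014 to 1.65 in the other group means), and Csf1r was at 0.146 with MLX-DN and 0.0644 to 0.147 elsewhere. The part of these differences in the results below was not tested.

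RefSeq promoter windows on GRCm38.p6, from 250 bases before to 50 after a start, were found for 33 of the 38 genes (39 windows). Acaa2, Cpt1b, Decr1, Idh3a and Pdp1 had none. The E-boxes are shown because MLX and its partners bind such elements. A pair of other sites, chosen after the values were seen, is shown because Sucla2 moved apart from the alternative subunit Suclg2 and Etfb from its partner subunit Etfa. A part of the sites in these levels was not tested. CACGTG, the E-box core, which reads the same on both strands, was present in 4 windows of 2 genes, Ogdh and Pcx. That is 10.3% of the windows of these genes, against 7.15% of 32851 windows of all genes. GCGCA and GCGC parted by any 1 base, the site of NRF1, a factor of mitochondrial genes, was searched on both strands and present in 5 windows (12.8%, against 4.60% of all), of Dld, Etfb, Etfdh, Ppara and Sucla2. AAGGTCA, the half-site of the estrogen-related receptors, was likewise present in 2 (5.13%, against 4.72%), of Acadm and Ogdh. None of the matches in a gene overlapped one of another motif. The 3 windows of Ogdh that hold an E-box hold only 2 different ones, since 2 of the windows overlap and share the second, which lies 141 and 162 bases before different starts. Both Ogdh elements lie in an annotated exon of another transcript of the gene. The Sucla2 stretch printed below also overlaps an annotated exon and untranslated region of its gene, and those of Pcx and Etfb do not. A match is a string of letters, not a measured binding site, and the authors' table was made on mm9. Each line runs 5′ to 3′ on the plus strand, with the motif in capitals.
Ogdh first element (chr11:6292048-6292077): gtcgcggcgtgtCACGTGgaccggtcgctc
Ogdh second element (chr11:6292405-6292434): ggcaagaatcctCACGTGgataccatgtaa
Pcx (chr19:4510222-4510241): ccCACGTGaggctttcaaga
Sucla2, NRF1 site (chr14:73552759-73552785): ctgcgtctctGCGCCTGCGCggtgccc
Etfb, NRF1 site (chr7:43444051-43444071): gtgttgcggcGCGCAGGCGCa

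The pyruvate and citric acid cycle enzymes moved in both directions with every construct, by small amounts. With MLX-WT, 8 of the 19 were called higher and 5 lower than in the GFP control, where 27.6% of all tested genes were called higher and 42.7% lower. A call here is an adjusted p under 0.05 in limma, a linear model fitted to each gene. Its estimates of variance and the adjustment draw on all tested genes. With MLX-DN, 12 were higher and 7 lower, so that all 19 were called, against 32.6% higher and 48.8% lower (81.4% called) among all genes. With MLX shRNA, 10 were higher and 4 lower than in NT shRNA, against 30.8% and 39.3%. The median log2 differences were 0.05, 0.11 and 0.12, beside -0.05, -0.08 and -0.02 over all tested genes. All log2 differences are on the log2(FPKM + 2) scale of the deposited values. The added 2 shrinks the differences of genes with low FPKM, which therefore do not give ratios of FPKM. For Cpt1a with MLX-DN against the GFP control, the fold was 0.590 on this scale and 0.530 as a ratio of mean FPKM. Calls were frequent among all genes, and the enzymes' share of higher calls lay above the background in each comparison, a difference that was not tested. The libraries of the 2 groups did not overlap in 14, 19 and 15 of the 19 enzymes, beside 76.4%, 83.6% and 69.4% of all genes. Centring each library on its median gave 13 higher and 4 lower with MLX-WT, and 14 higher and 3 lower with MLX shRNA. Centring shifts all genes of a comparison by the same amount, and the shares of all genes called after it were not counted. The added calls were Cs, Idh3a, Idh3b, Mdh1 and Pcx with MLX-WT, and Cs, Dlst, Idh3b and Pcx with MLX shRNA, while Fh1 with MLX-WT and Ogdh with MLX shRNA were lost. Absolute log2 differences over 0.5 were found in 0 of the 19 under MLX-WT, 2 under MLX-DN and 1 under MLX shRNA, beside 9.84%, 21.1% and 8.77% of all genes. As means over the 5 groups the 19 enzymes ranged from 7.16 FPKM (Pdp1) to 296 (Mdh2), with a median of 94.98, and the highest group mean was 1.102 (Idh3g) to 1.62 (Idh2) times the lowest. MLX-DN was the highest group for 9 of the 19, and the GFP control the lowest for 7. In bulk RNA, less RNA per cell and fewer cells that hold it cannot be told apart. MLX-WT and MLX-DN are compared with the same GFP control libraries.

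**Figure D1:**
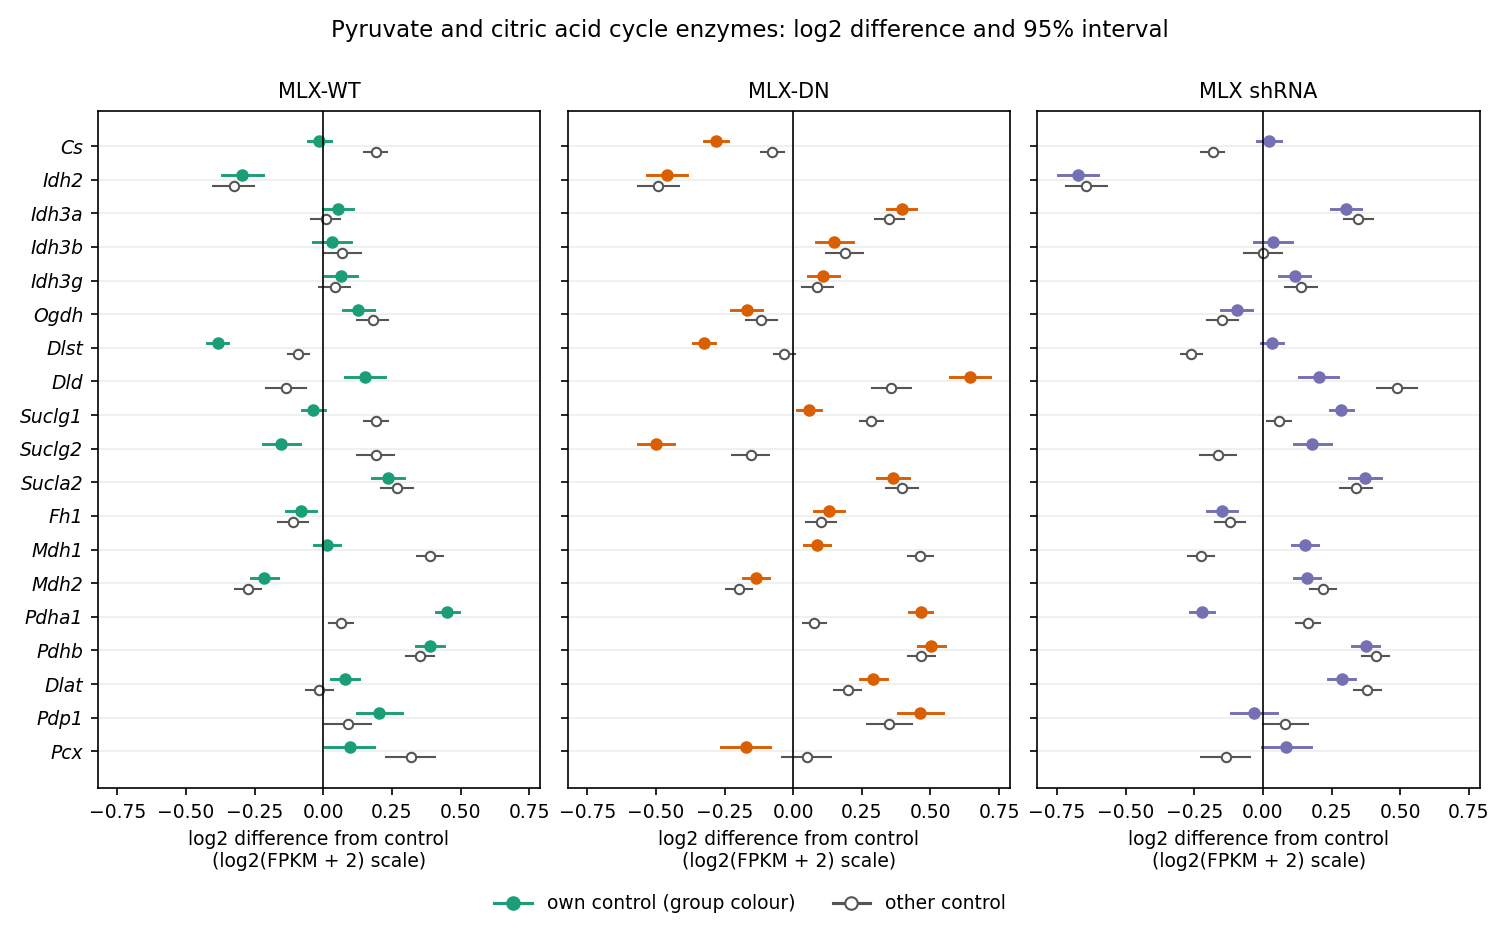
Log2 differences of the 19 pyruvate and citric acid cycle enzymes (x axis, log2(FPKM + 2) scale; bars, 95% interval) with MLX-WT, MLX-DN and MLX shRNA, each n = 3 against n = 3. Filled points use the group's own control and open points the other control. Idh2 lies left of 0 and Pdhb and Sucla2 right of 0 in every panel with both controls, while Suclg2, Mdh1 and Pdha1 are called on different sides with the 2 controls under MLX shRNA.

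Pyruvate dehydrogenase joins glycolysis to the cycle. Pdhb, the beta subunit of its E1 component, was at 121, 118 and 118 FPKM in the GFP control and 125, 123 and 119 in NT shRNA. Its levels were 159.7, 152 and 157 under MLX-WT, 168, 168 and 172 under MLX-DN and 158, 157 and 162 under MLX shRNA. All 9 libraries with an MLX construct lay above all 6 control libraries. The log2 differences were 0.39 (SE 0.0235, adjusted p = 7.63e-10), 0.50 (adjusted p = 1.64e-11) and 0.37 (adjusted p = 1.31e-09), and 0.35, 0.47 and 0.41 against the other control.

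Pdha1, the alpha subunit of E1, was at 135, 135 and 134 FPKM in the GFP control but 179, 178 and 175 in NT shRNA. It reached 187, 183 and 185 under MLX-WT, 185, 188 and 187 under MLX-DN and 154, 147 and 153 under MLX shRNA. The GFP control libraries were the lowest of all 15, and NT shRNA lay near MLX-WT and MLX-DN. The log2 difference from the own control was 0.45 under MLX-WT, 0.46 under MLX-DN and -0.22 under MLX shRNA (adjusted p = 1.78e-11, 6.09e-12 and 8.36e-08). Against the other control these values were 0.06, 0.08 and 0.16, so the sign with MLX shRNA depends on the control. Of the exon bases of Pdha1, 16.2% overlap Map3k15 on the opposite strand. Map3k15 stood at 22.6 FPKM in the GFP control, 34.4 in NT shRNA, 33.0 under MLX-WT, 38.4 under MLX-DN and 27.7 under MLX shRNA, and no source used here says if reads were counted by strand. The values of Pdha1 are uncertain to that extent.

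Dlat, the E2 acetyltransferase of the complex, rose with every construct against its own control, at 30.4, 31.3 and 31.4 FPKM in the GFP control, 33.3, 33.4 and 33.1 in NT shRNA, 33.2, 32.6 and 32.9 under MLX-WT, 37.9, 38.7 and 38.8 under MLX-DN and 41.1, 39.8 and 42.1 under MLX shRNA. The MLX-DN and MLX shRNA libraries lay above all 6 control libraries, and those with MLX-WT above the GFP control only. Dlat differed by 0.08, 0.29 and 0.29 (adjusted p = 0.00663, 9.37e-09 and 2.48e-08), and with MLX-WT it was -0.01 against NT shRNA.

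Dld, the E3 dehydrogenase shared with the 2-oxoglutarate complex, stood at 101, 97.2 and 94.7 FPKM in the GFP control and 121, 119 and 118 in NT shRNA. It was at 108, 109 and 108 under MLX-WT, 149, 152 and 159.8 under MLX-DN and 141, 130.0 and 142 under MLX shRNA. The MLX-DN libraries were the highest and did not overlap any other group. Its log2 difference with MLX-DN, 0.64 (SE 0.0340, adjusted p = 7.19e-11), was the largest of the 19 enzymes in that comparison, and it was 0.36 against NT shRNA. The difference was 0.20 with MLX shRNA and 0.15 with MLX-WT, the last turning to -0.14 against NT shRNA.

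Pdp1, a phosphatase that switches the complex on, was much lower in level than the complex. It was at 6.28, 5.97 and 5.99 FPKM in the GFP control, 6.65, 6.72 and 6.85 in NT shRNA, 7.20, 7.15 and 7.56 under MLX-WT, 9.15, 8.73 and 9.55 under MLX-DN and 6.83, 6.02 and 6.81 under MLX shRNA. The MLX-DN libraries were the highest, and those with MLX shRNA overlapped NT shRNA. With MLX-WT the difference was 0.20 and with MLX-DN it was 0.46, both called (adjusted p = 0.000222 and 1.72e-08), while -0.03 with MLX shRNA was not (95% interval -0.11 to 0.05).

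Pcx, pyruvate carboxylase, makes oxaloacetate from pyruvate and carries the E-box printed above. It stood at 10.4, 11.2 and 10.6 FPKM in the GFP control, 9.15, 9.53 and 8.09 in NT shRNA, 11.7, 11.4 and 11.7 under MLX-WT, 9.15, 9.07 and 9.64 under MLX-DN and 9.56, 9.70 and 9.45 under MLX shRNA. The MLX-WT libraries were the highest and did not overlap any other group. The difference with MLX-WT was 0.10 from the GFP control, not called at an adjusted p of 0.0500028 (0.0254 without GFP control replicate 2), and 0.32 from NT shRNA (adjusted p = 6.28e-06). It fell by 0.17 on the log2 scale with MLX-DN (adjusted p = 0.00131), but the difference from NT shRNA was 0.05, and after median centring the fall was not called (-0.08, adjusted p = 0.0789). With MLX shRNA the difference was 0.09 (adjusted p = 0.0808, and 0.0170 without NT shRNA replicate 2).

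Cs, citrate synthase, which opens the cycle, was at 148, 146 and 149 FPKM in the GFP control, 127, 129.5 and 127 in NT shRNA, 146, 143 and 149 under MLX-WT, 120.3, 123 and 120.3 under MLX-DN and 131, 130.4 and 128 under MLX shRNA. The GFP control and MLX-WT libraries overlapped and were the highest, and the MLX-DN libraries were the lowest. It fell with MLX-DN (-0.28, adjusted p = 2.71e-09; -0.08 against NT shRNA). Differences of -0.01 with MLX-WT (95% interval -0.06 to 0.03) and 0.02 with MLX shRNA (95% interval -0.02 to 0.06) were not called.

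The isocitrate step is carried by an NADP-linked enzyme, Idh2, and by the NAD-linked complex of Idh3a, Idh3b and Idh3g. Idh2 stood at 69.1, 69.6 and 68.98 FPKM in the GFP control and 69.7, 72.1 and 70.5 in NT shRNA. It was at 57.4, 54.02 and 56.7 under MLX-WT, 50.3, 50.9 and 48.2 under MLX-DN and 41.4, 46.3 and 43.2 under MLX shRNA. All 9 libraries with an MLX construct were below all 6 control libraries, and the 3 constructs did not overlap each other. The log2 differences were -0.30, -0.46 and -0.67 (SE 0.0347; adjusted p = 1.77e-06, 5.41e-09 and 1.22e-10), and -0.33, -0.49 and -0.64 against the other control. Idh2 thus fell with more Mlx RNA and with less.

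Idh3a, the catalytic subunit of the NAD-linked enzyme, moved the other way. It stood at 71.6, 70.8 and 69.6 FPKM in the GFP control, 72.6, 73.1 and 73.1 in NT shRNA, 73.6, 73.1 and 73.5 under MLX-WT, 93.96, 92.6 and 94.1 under MLX-DN and 91.9, 86.3 and 93.2 under MLX shRNA. The MLX-DN and MLX shRNA libraries overlapped each other and lay above the other 9. The differences were 0.40 with MLX-DN and 0.30 with MLX shRNA (adjusted p = 5.93e-10 and 3.04e-08), and 0.05 with MLX-WT was not called (adjusted p = 0.0662), unlike 0.12 after median centring.

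The other subunits changed less. Idh3b was at 98.6, 97.2 and 93.8 FPKM in the GFP control, 95.01, 94.6 and 92.5 in NT shRNA, 101, 99.8 and 95.5 under MLX-WT, 106, 111 and 105 under MLX-DN and 93.02, 101 and 95.7 under MLX shRNA. Only the MLX-DN libraries stood apart from both controls. The difference of 0.15 with MLX-DN was called (adjusted p = 0.000458), and those of 0.03 and 0.04 were not. Idh3g was at 127, 133 and 128 FPKM in the GFP control, 133, 132 and 129 in NT shRNA, 137, 132 and 136 under MLX-WT, 138, 145 and 136 under MLX-DN and 140.1, 143 and 144 under MLX shRNA. It was called higher with MLX-DN (0.11) and MLX shRNA (0.12). The call with MLX-WT (0.06, adjusted p = 0.044, groups overlapping) was lost on leaving out replicate 1 (adjusted p = 0.1504) or 3 (0.126) of the GFP control or replicate 1 (0.141) or 3 (0.1005) of MLX-WT, and after quantile normalization (0.149).

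Within a library the ratio of Idh2 to Idh3a in FPKM was 0.980 ± 0.0130 (SD, n = 3) for the GFP control and 0.9704 ± 0.0139 in NT shRNA. It was 0.763 ± 0.0218 under MLX-WT, 0.532 ± 0.0191 under MLX-DN and 0.484 ± 0.0467 under MLX shRNA. The controls lay together at near equal levels of both genes, the constructs lay below them, and MLX-DN and MLX shRNA overlapped.

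The 2-oxoglutarate complex is built from Ogdh (E1), Dlst (E2) and Dld. Ogdh, with its E-boxes printed above, stood at 31.8, 32.4 and 33.2 FPKM in the GFP control and 30.5, 32.02 and 31.2 in NT shRNA. Its levels were 35.3, 34.8 and 36.9 under MLX-WT, 28.7, 29.2 and 28.1 under MLX-DN and 29.1, 29.2 and 29.01 under MLX shRNA. The MLX-WT libraries lay above all controls and the MLX-DN and MLX shRNA libraries below them. The log2 differences were 0.13, -0.17 and -0.09 (SE 0.0264; adjusted p = 0.000498, 2.36e-05 and 0.0049), and 0.18, -0.12 and -0.15 against the other control. With each library centred on its median, the difference with MLX shRNA was -0.04 and was not called (adjusted p = 0.142). MLX-DN differed from MLX-WT by -0.30 (adjusted p = 7.97e-08).

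Dlst was at 111, 112 and 115 FPKM in the GFP control, 91.6, 91.9 and 92.05 in NT shRNA, 85.98, 85.7 and 86.6 under MLX-WT, 90.5, 90.2 and 88.9 under MLX-DN and 93.9, 93.8 and 94.4 under MLX shRNA. The GFP control stood above the other 4 groups, which spanned 85.7 to 94.4 FPKM. The fall with MLX-WT was -0.38 from the GFP control and -0.09 from NT shRNA (adjusted p = 4.09e-11 and 0.000372). With MLX-DN it was -0.32 from the GFP control (adjusted p = 1.52e-10), and -0.03 from NT shRNA was not called. MLX shRNA differed by 0.03 from NT shRNA, also not called. The 3 subunits of the complex thus had different orders of groups, with MLX-WT highest for Ogdh, MLX-DN highest for Dld and the GFP control highest for Dlst.

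Succinyl-CoA ligase pairs 1 alpha subunit, Suclg1, with either of 2 beta subunits, the ADP-forming Sucla2 or the GDP-forming Suclg2. Sucla2 was at 81.8, 79.5 and 79.6 FPKM in the GFP control and 79.2, 77.1 and 79.2 in NT shRNA. It was at 96.3, 93.6 and 94.7 under MLX-WT, 102, 102 and 108 under MLX-DN and 103, 98.4 and 105 under MLX shRNA. All 9 libraries with an MLX construct lay above all 6 controls. Sucla2 differed by 0.23, 0.36 and 0.37 (adjusted p = 1.77e-06, 5.75e-09 and 9.6e-09), and 0.27, 0.40 and 0.34 against the other control.

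Suclg2 was at 21.1, 20.9 and 21.1 FPKM in the GFP control and 16.3, 16.7 and 15.5 in NT shRNA, groups that did not overlap. It was at 18.3, 18.7 and 19.2 under MLX-WT, 14.1, 13.8 and 15.001 under MLX-DN and 18.6, 18.9 and 18.2 under MLX shRNA. The MLX-DN libraries were the lowest, below both controls, and the MLX-WT and MLX shRNA libraries lay between the controls. The difference was -0.50 with MLX-DN (adjusted p = 5.86e-10; -0.15 against NT shRNA). With MLX-WT it was -0.15 but 0.19 against NT shRNA, and with MLX shRNA 0.18 but -0.16 against the GFP control. The ratio of Sucla2 to Suclg2 was 3.82 ± 0.0510 (SD, n = 3) for the GFP control and 4.86 ± 0.253 in NT shRNA. It was 5.07 ± 0.173 under MLX-WT, 7.26 ± 0.0872 under MLX-DN and 5.50 ± 0.281 under MLX shRNA, highest with MLX-DN.

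Suclg1 was at 121, 121 and 121 FPKM in the GFP control, 105, 103 and 102 in NT shRNA, 118, 116 and 121 under MLX-WT, 125, 126 and 128 under MLX-DN and 125, 126 and 127 under MLX shRNA. NT shRNA was the lowest group and did not overlap any other. The difference with MLX shRNA was 0.29 (adjusted p = 4.82e-09), and 0.06 against the GFP control. With MLX-DN it was 0.06 (adjusted p = 0.0156), lost without MLX-DN replicate 3 (adjusted p = 0.0576) and after quantile normalization (0.0767). With MLX-WT it was -0.04 and was not called (adjusted p = 0.12, and 0.0445 without MLX-WT replicate 3).

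The last steps of the cycle are fumarase (Fh1) and malate dehydrogenase, with Mdh2 in the mitochondrion and Mdh1 in the cytosol. Mdh2 was the highest of the 36 enzymes, at a mean of 296 FPKM over the 5 groups. Its group means were 297 ± 5.55 in the GFP control (SD, n = 3), 309.8 ± 3.68 in NT shRNA, 256 ± 5.19 under MLX-WT, 269.9 ± 3.46 under MLX-DN and 346 ± 6.14 under MLX shRNA. MLX-WT and MLX-DN lay below both controls and MLX shRNA above them. The differences were -0.21, -0.14 and 0.16 (adjusted p = 4.61e-07, 3.93e-05 and 1.24e-05). Fh1 stood at 81.6 ± 1.85 FPKM in the GFP control, 83.3 ± 0.510 in NT shRNA, 77.05 ± 1.56 under MLX-WT, 89.5 ± 0.996 under MLX-DN and 74.9 ± 2.54 under MLX shRNA. It rose with MLX-DN (0.13) and fell with MLX shRNA (-0.15). Its fall with MLX-WT (-0.08, adjusted p = 0.0109) was lost without GFP control replicate 2 (adjusted p = 0.0552) and after median centring (-0.01, 0.694). Mdh1 stood at 158 ± 2.16 FPKM in the GFP control, 121 ± 2.66 in NT shRNA, 159 ± 0.136 under MLX-WT, 168 ± 1.17 under MLX-DN and 135 ± 3.15 under MLX shRNA. The 2 shRNA groups were the lowest, and the difference with MLX shRNA was 0.15 from NT shRNA but -0.23 from the GFP control.

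Called in the same direction against both controls were 5 enzymes higher and 4 lower of these 19 with MLX-WT, where 11.4% of all tested genes were higher and 23.5% lower. With MLX-DN the counts were 12 and 5, against 15.1% and 34.9%, and with MLX shRNA 8 and 3, against 21.4% and 28%. The comparisons of a group with the 2 controls share that group's libraries. Pdhb and Sucla2 were higher against both controls with all 3 constructs, and Idh2 was lower.

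The beta-oxidation enzymes also split in direction. With MLX-WT, 6 of the 16 tested were higher and 7 lower. With MLX-DN, 7 were higher and 8 lower. With MLX shRNA, 11 were higher and 4 lower, beside the same shares of all genes as above. The median log2 differences were -0.05, -0.02 and 0.17, beside -0.05, -0.08 and -0.02 over all genes. In the first 2 comparisons the medians lay near those of all genes, and with MLX shRNA the enzymes lay higher. Centring each library on its median gave 7 higher and 5 lower with MLX-WT, without a count of all genes beside it. The enzymes not overlapping between groups were 13, 15 and 14 of the 16, beside 76.4%, 83.6% and 69.4% of all genes. As means over the 5 groups, all 17 enzymes ranged from 0.590 FPKM (Cpt1b) to 108 (Etfa), with a median of 39.8. The counts differed with the control used. Against NT shRNA, 11 were higher and 3 lower with MLX-WT (25.7% and 44.3% of all genes), and 9 higher and 2 lower with MLX-DN (21% and 48.7%). Against the GFP control, 7 were higher and 7 lower with MLX shRNA (37.3% and 42.8% of all genes). NT shRNA itself had 10 of the 16 lower than the GFP control and 1 higher (37.1% and 37% of all genes), with a median of -0.24 beside -0.00 over all genes.

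**Figure D2:**
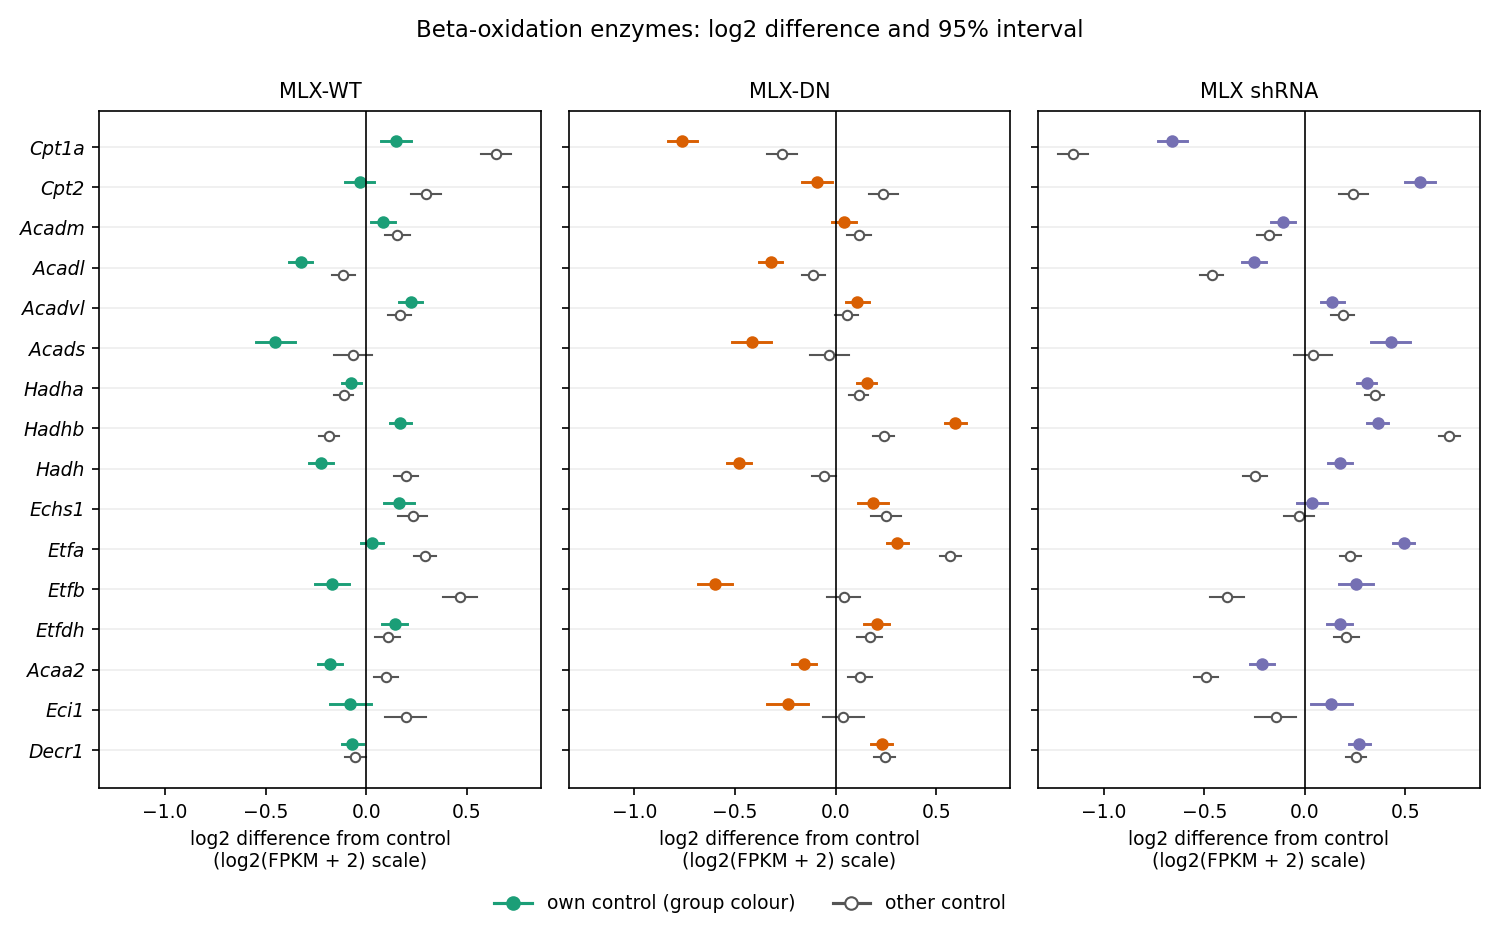
Log2 differences of the 16 tested beta-oxidation enzymes (x axis, log2(FPKM + 2) scale; bars, 95% interval) with MLX-WT, MLX-DN and MLX shRNA, each n = 3 against n = 3. Filled points use the group's own control and open points the other control. Cpt1a is right of 0 with MLX-WT and left of 0 with MLX-DN and MLX shRNA for both controls, while Etfb and Hadh lie on different sides of 0 for the 2 controls with MLX-WT and with MLX shRNA.

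Fatty acids enter through carnitine palmitoyltransferase 1 on the outer membrane (Cpt1a the liver-type form, Cpt1b the muscle-type form) and 2 on the inner membrane (Cpt2). Cpt1a had the widest range of the 35 tested enzymes: its highest group mean was 3.05 times its lowest. It stood at 13.4, 13.5 and 14.1 FPKM in the GFP control and 9.10, 9.26 and 8.99 in NT shRNA. It was at 15.4, 14.8 and 15.8 under MLX-WT, 7.03, 7.41 and 7.30 under MLX-DN and 4.77, 5.40 and 4.97 under MLX shRNA. No 2 groups overlapped, and MLX-WT lay above both controls while MLX-DN and MLX shRNA lay below both. The log2 differences were 0.15 (SE 0.0345, adjusted p = 0.00119), -0.76 (adjusted p = 1.16e-11) and -0.66 (adjusted p = 1.49e-10). Against the other control they were 0.64, -0.27 and -1.15. The controls themselves differed by -0.50 (NT shRNA minus GFP control, adjusted p = 3.42e-09). MLX-DN differed from MLX-WT by -0.91 (adjusted p = 3.83e-12), the largest difference of the 35 tested enzymes in that comparison, which uses neither control.

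Cpt2 stood at 14.2, 13.5 and 13.995 FPKM in the GFP control and 10.7, 11.02 and 10.2 in NT shRNA. It was at 13.7, 13.6 and 13.4 under MLX-WT, 12.9, 13.4 and 12.4 under MLX-DN and 16.1, 17.4 and 16.9 under MLX shRNA. The MLX shRNA libraries were the highest of all and those of NT shRNA the lowest. The rise with MLX shRNA was 0.57 (SE 0.0343, adjusted p = 7.73e-10) from NT shRNA and 0.24 from the GFP control. The difference with MLX-DN was -0.09 (adjusted p = 0.0213) but 0.24 against NT shRNA. It was not called on leaving out replicate 1 (adjusted p = 0.0829) or 3 (0.0551) of the GFP control or replicate 3 of MLX-DN (0.109), or after median centring (-0.00). The ratio of Cpt1a to Cpt2 in a library was 0.984 ± 0.0365 (SD, n = 3) in the GFP control, 0.856 ± 0.0186 in NT shRNA, 1.14 ± 0.0478 under MLX-WT, 0.562 ± 0.0253 under MLX-DN and 0.300 ± 0.00855 under MLX shRNA. The MLX-WT libraries had the highest ratios and the MLX shRNA libraries the lowest, and no 2 groups overlapped.

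Cpt1b, below the limit for testing, ranged widely within groups. It was at 0.724, 1.32 and 0.345 FPKM in the GFP control, 0.840, 0.604 and 0.474 in NT shRNA, 0.402, 0.513 and 0.753 under MLX-WT, 0.101, 0.255 and 0.846 under MLX-DN and 0.706, 0.718 and 0.255 under MLX shRNA. Groups overlapped in every comparison, and exact two-sided permutation tests gave p = 0.7, 0.4 and 0.7 for the 3 constructs, where 0.1 is the smallest that 3 against 3 allows. Cpt1a was thus the more abundant carnitine palmitoyltransferase 1 transcript in all 15 libraries.

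The acyl-CoA dehydrogenases take the first step of each round, for very long (Acadvl), long (Acadl), medium (Acadm) and short chains (Acads). Acadl stood at 96.3, 93.9 and 99.8 FPKM in the GFP control and 84.1, 83.1 and 82.6 in NT shRNA. It was at 76.2, 75.2 and 78.98 under MLX-WT, 76.4, 76.6 and 77.8 under MLX-DN and 70.7, 67.3 and 70.8 under MLX shRNA. All 9 libraries with an MLX construct lay below all 6 control libraries. The differences were -0.33, -0.32 and -0.25 (adjusted p = 3.37e-08, 1.93e-08 and 6.31e-07), and -0.11, -0.11 and -0.46 against the other control.

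Acads was at 33.3, 33.8 and 34.4 FPKM in the GFP control and 23.9, 26.1 and 26.2 in NT shRNA. It was at 25.6, 23.5 and 23.6 under MLX-WT, 24.5, 25.97 and 24.1 under MLX-DN and 32.7, 36.8 and 35.2 under MLX shRNA. The MLX-WT, MLX-DN and NT shRNA libraries overlapped at the low level, and MLX shRNA overlapped the GFP control at the high one. The differences from the own control were -0.45, -0.42 and 0.43 (adjusted p = 2.91e-07, 4.01e-07 and 5.7e-07). Against the other control they were -0.07, -0.03 and 0.04, none of them called.

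Acadvl stood at 87.1, 82.5 and 81.6 FPKM in the GFP control, 88.5, 87.9 and 84.4 in NT shRNA, 97.8, 97.3 and 98.4 under MLX-WT, 89.5, 90.7 and 90.96 under MLX-DN and 93.2, 97.9 and 95.99 under MLX shRNA. MLX-WT lay above both controls, as did MLX-DN and MLX shRNA by smaller margins. The differences were 0.22, 0.11 and 0.14 (adjusted p = 2.54e-06, 0.00154 and 0.000324), and with MLX-DN 0.06 from NT shRNA was not called. Of its exon bases 42.9% overlap Dvl2 on the opposite strand, whose group means were 5.64 to 10.05 FPKM, so its values are uncertain to that extent. Acadm had group means of 38.5 to 46.6 FPKM. It was called lower with MLX shRNA (-0.11, adjusted p = 0.00305), though not after median centring (-0.05, adjusted p = 0.0947), and 0.04 with MLX-DN was not called, unlike 0.13 after centring. The call of 0.08 with MLX-WT was lost on leaving out replicate 2 of the GFP control (adjusted p = 0.0891) or replicate 3 of MLX-WT (0.0559).

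The trifunctional protein, of Hadha and Hadhb, takes the remaining steps for long chains. Hadhb, its thiolase subunit, was at 34.8, 33.8 and 33.6 FPKM in the GFP control and 43.8, 43.3 and 45.3 in NT shRNA. It was at 38.2, 37.8 and 39.8 under MLX-WT, 52.5, 51.9 and 53.03 under MLX-DN and 56.9, 57.7 and 57.4 under MLX shRNA. No 2 groups overlapped, with MLX-DN and MLX shRNA above both controls and MLX-WT between them. The differences were 0.17, 0.59 and 0.36 (adjusted p = 1.51e-05, 3.47e-12 and 2.93e-09), and -0.19, 0.24 and 0.72 against the other control.

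Hadha, the subunit with the hydratase and dehydrogenase activities, was at 60.3, 62.7 and 61.6 FPKM in the GFP control and 62.3, 64.2 and 63.3 in NT shRNA. It was at 59.4, 57.5 and 58.2 under MLX-WT, 68.3, 68.7 and 68.97 under MLX-DN and 77.7, 78.7 and 79.9 under MLX shRNA. MLX-WT was the lowest group, and MLX-DN and MLX shRNA were above both controls. The differences were -0.07, 0.15 and 0.31 (adjusted p = 0.00657, 7.1e-06 and 4.79e-09), called in the same direction against the other control. After median centring the difference with MLX-WT was -0.01 and was not called. Hadha thus had the reverse signs of Cpt1a and Ogdh, which were called higher with MLX-WT and lower with MLX-DN and MLX shRNA against both controls. These 3 genes were singled out after their values were seen, and the comparisons share control libraries.

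For shorter chains the steps are taken by Echs1, a hydratase, Hadh, a dehydrogenase, and Acaa2, a thiolase. Hadh was at 36.5, 37.4 and 36.4 FPKM in the GFP control and 27.005, 26.8 and 27.01 in NT shRNA. It was at 30.9, 30.02 and 32.8 under MLX-WT, 25.98, 25.7 and 25.7 under MLX-DN and 30.1, 31.4 and 30.5 under MLX shRNA. The GFP control was highest, MLX-DN lowest and NT shRNA next to it. The differences were -0.22, -0.48 and 0.18 (adjusted p = 3.38e-06, 2.28e-10 and 4.53e-05). Against the other control they were 0.20, -0.06 (not called) and -0.25, so that the first and last change sign.

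Acaa2 had group means of 79.1 ± 0.789 FPKM in the GFP control, 64.9 ± 1.995 in NT shRNA, 69.6 ± 1.99 under MLX-WT, 70.7 ± 1.09 under MLX-DN and 55.7 ± 1.59 under MLX shRNA. MLX shRNA was below both controls (-0.22, adjusted p = 5.42e-06; -0.49 from the GFP control), and MLX-WT and MLX-DN lay between the controls. Echs1 had group means of 34.3 to 41.2 FPKM and rose with MLX-WT (0.16) and MLX-DN (0.19; adjusted p = 0.000569 and 0.000136). With MLX shRNA its difference was 0.04 (95% interval -0.04 to 0.11), not called, unlike 0.09 after median centring.

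Eci1 and Decr1 prepare unsaturated fatty acids for the spiral. Decr1 had group means of 15.8 ± 0.186 FPKM in the GFP control, 15.6 ± 0.323 in NT shRNA, 14.97 ± 0.0933 under MLX-WT, 18.9 ± 0.372 under MLX-DN and 19.2 ± 0.453 under MLX shRNA. It rose with MLX-DN (0.23) and MLX shRNA (0.27), against either control. The call with MLX-WT (-0.07) was lost on leaving out replicate 3 of the GFP control (adjusted p = 0.0679) or replicate 1 of MLX-WT (0.0578) and after median centring (-0.00) and quantile normalization (-0.02). Eci1 had group means of 25.7 to 31.6 FPKM, highest in the GFP control. It fell with MLX-DN (-0.24, adjusted p = 0.000259), and 0.04 from NT shRNA was not called. The call with MLX shRNA (0.13, groups overlapping) was lost without MLX shRNA replicate 2 (adjusted p = 0.128) or NT shRNA replicate 2 (0.0718) or 3 (0.0868).

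The electron transfer flavoprotein, of Etfa and Etfb, carries electrons from the dehydrogenases to the quinone pool through Etfdh. Etfa was at 102, 104 and 103 FPKM in the GFP control and 85.8, 87.8 and 82.1 in NT shRNA. It was at 105, 104 and 106 under MLX-WT, 126, 128 and 129 under MLX-DN and 121, 118 and 123 under MLX shRNA. The MLX-DN and MLX shRNA libraries lay above both controls, and MLX-WT overlapped the GFP control. The differences were 0.31 with MLX-DN and 0.49 with MLX shRNA (adjusted p = 1.37e-08 and 1.1e-10), and 0.57 and 0.23 against the other control.

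Etfb, with the NRF1 letters printed above, was at 74.98, 79.1 and 76.5 FPKM in the GFP control and 49.4, 48.7 and 47.9 in NT shRNA. It was at 70.1, 69.4 and 64.6 under MLX-WT, 49.3, 52.1 and 48.8 under MLX-DN and 54.7, 60.7 and 59.8 under MLX shRNA. The GFP control was the highest group, NT shRNA and MLX-DN overlapped as the lowest, and the other 2 lay between. The differences were -0.17, -0.60 and 0.25 (SE 0.0394; adjusted p = 0.00113, 1.04e-09 and 3.53e-05). Against the other control they were 0.47, 0.04 (not called) and -0.39, a change of sign in each. The controls differed by -0.64 (adjusted p = 8.21e-10), the largest difference between them of the 35 tested enzymes.

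The ratio of Etfa to Etfb was 1.34 ± 0.0194 (SD, n = 3) in the GFP control, 1.75 ± 0.0459 in NT shRNA, 1.54 ± 0.0812 under MLX-WT, 2.55 ± 0.0878 under MLX-DN and 2.07 ± 0.137 under MLX shRNA. The 2 subunits of 1 protein thus did not keep a fixed ratio, and MLX-DN and MLX shRNA were above both controls. Etfdh was at 36.2, 36.6 and 36.7 FPKM in the GFP control and 37.2, 37.2 and 37.8 in NT shRNA. It was at 39.4, 39.9 and 42.1 under MLX-WT, 42.6, 41.1 and 43.4 under MLX-DN and 43.8, 42.7 and 40.9 under MLX shRNA. All 9 libraries with an MLX construct were above all 6 controls, by 0.14, 0.21 and 0.17 (adjusted p = 0.000476, 9.14e-06 and 8.2e-05).

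**Figure D3:**
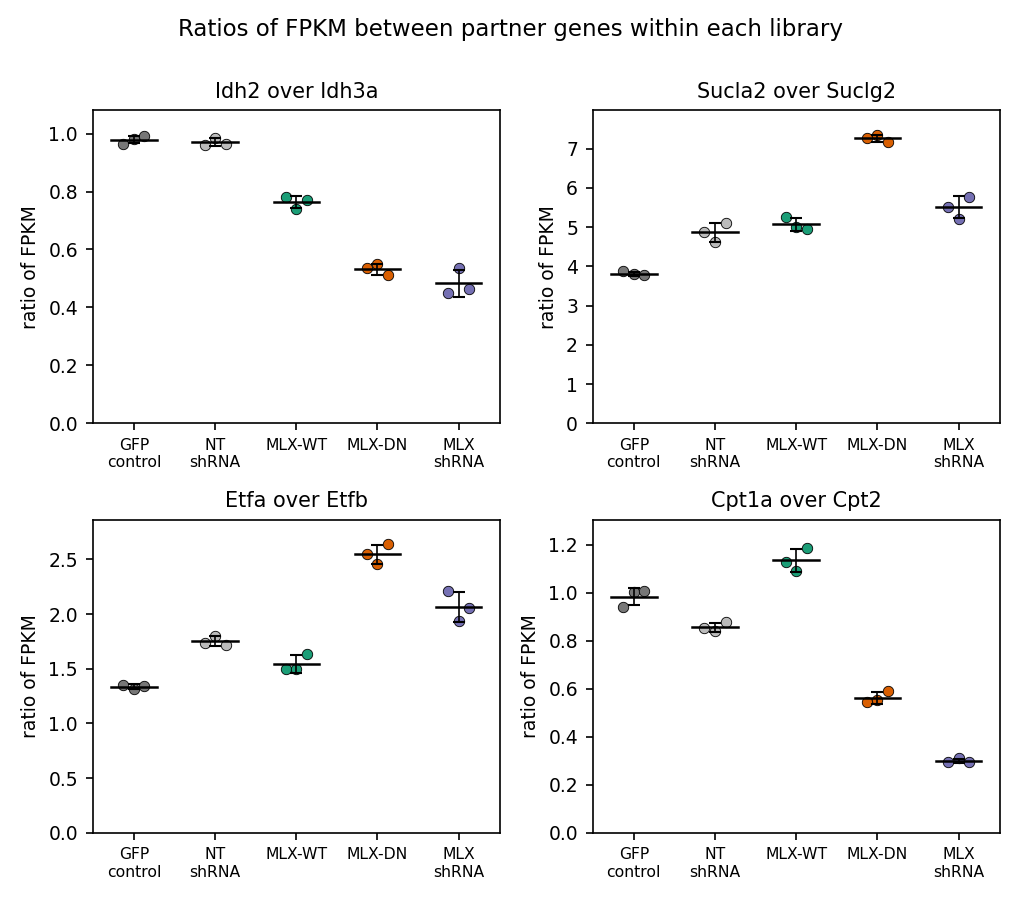
Ratios of FPKM between pairs of related genes in each library (points; y axis, ratio), with the mean and SD of the 3 libraries of each group. Idh2 over Idh3a falls from 0.980 in the GFP control to 0.484 with MLX shRNA, Cpt1a over Cpt2 falls to 0.300, and Sucla2 over Suclg2 (7.26) and Etfa over Etfb (2.55) are highest with MLX-DN.

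Of the 16 tested beta-oxidation enzymes, 5 were higher and 2 lower against both controls with MLX-WT. The counts were 6 and 2 under MLX-DN and 7 and 4 under MLX shRNA, beside the shares of all genes given for the citric acid cycle enzymes. Etfdh was higher and Acadl lower against both controls with all 3 constructs. Etfa, Hadha, Hadhb and Decr1 were higher against both with MLX-DN and MLX shRNA. Shares of all genes for these patterns across constructs were not counted, and the comparisons share libraries.

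The regulators were below 0.5 FPKM in every library and were not in the fit. Ppargc1a encodes a coactivator that raises mitochondrial genes, and Ppara a nuclear receptor that raises beta-oxidation genes. Ppargc1a was at 0.219, 0.209 and 0.236 FPKM in the GFP control and 0.306, 0.243 and 0.192 in NT shRNA. It was at 0.125, 0.122 and 0.159 under MLX-WT, 0.262, 0.238 and 0.202 under MLX-DN and 0.461, 0.444 and 0.414 under MLX shRNA. MLX-WT was below and MLX shRNA above all 6 control libraries, and MLX-DN overlapped both controls. Exact two-sided permutation tests gave p = 0.1 for MLX-WT and for MLX shRNA, the smallest possible, and 0.6 for MLX-DN.

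Ppara was at 0.109, 0.141 and 0.111 FPKM in the GFP control and 0.115, 0.156 and 0.122 in NT shRNA. It was at 0.0749, 0.0706 and 0.0632 under MLX-WT, 0.0978, 0.110 and 0.0966 under MLX-DN and 0.231, 0.195 and 0.267 under MLX shRNA. As with Ppargc1a, MLX-WT was below and MLX shRNA above all 6 controls. Exact two-sided permutation tests gave p = 0.1 for MLX-WT and MLX shRNA and p = 0.2 for MLX-DN. These levels are 0.5 FPKM or less, and 3 against 3 libraries cannot pass 0.05 in such a test.

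**Figure D4:**
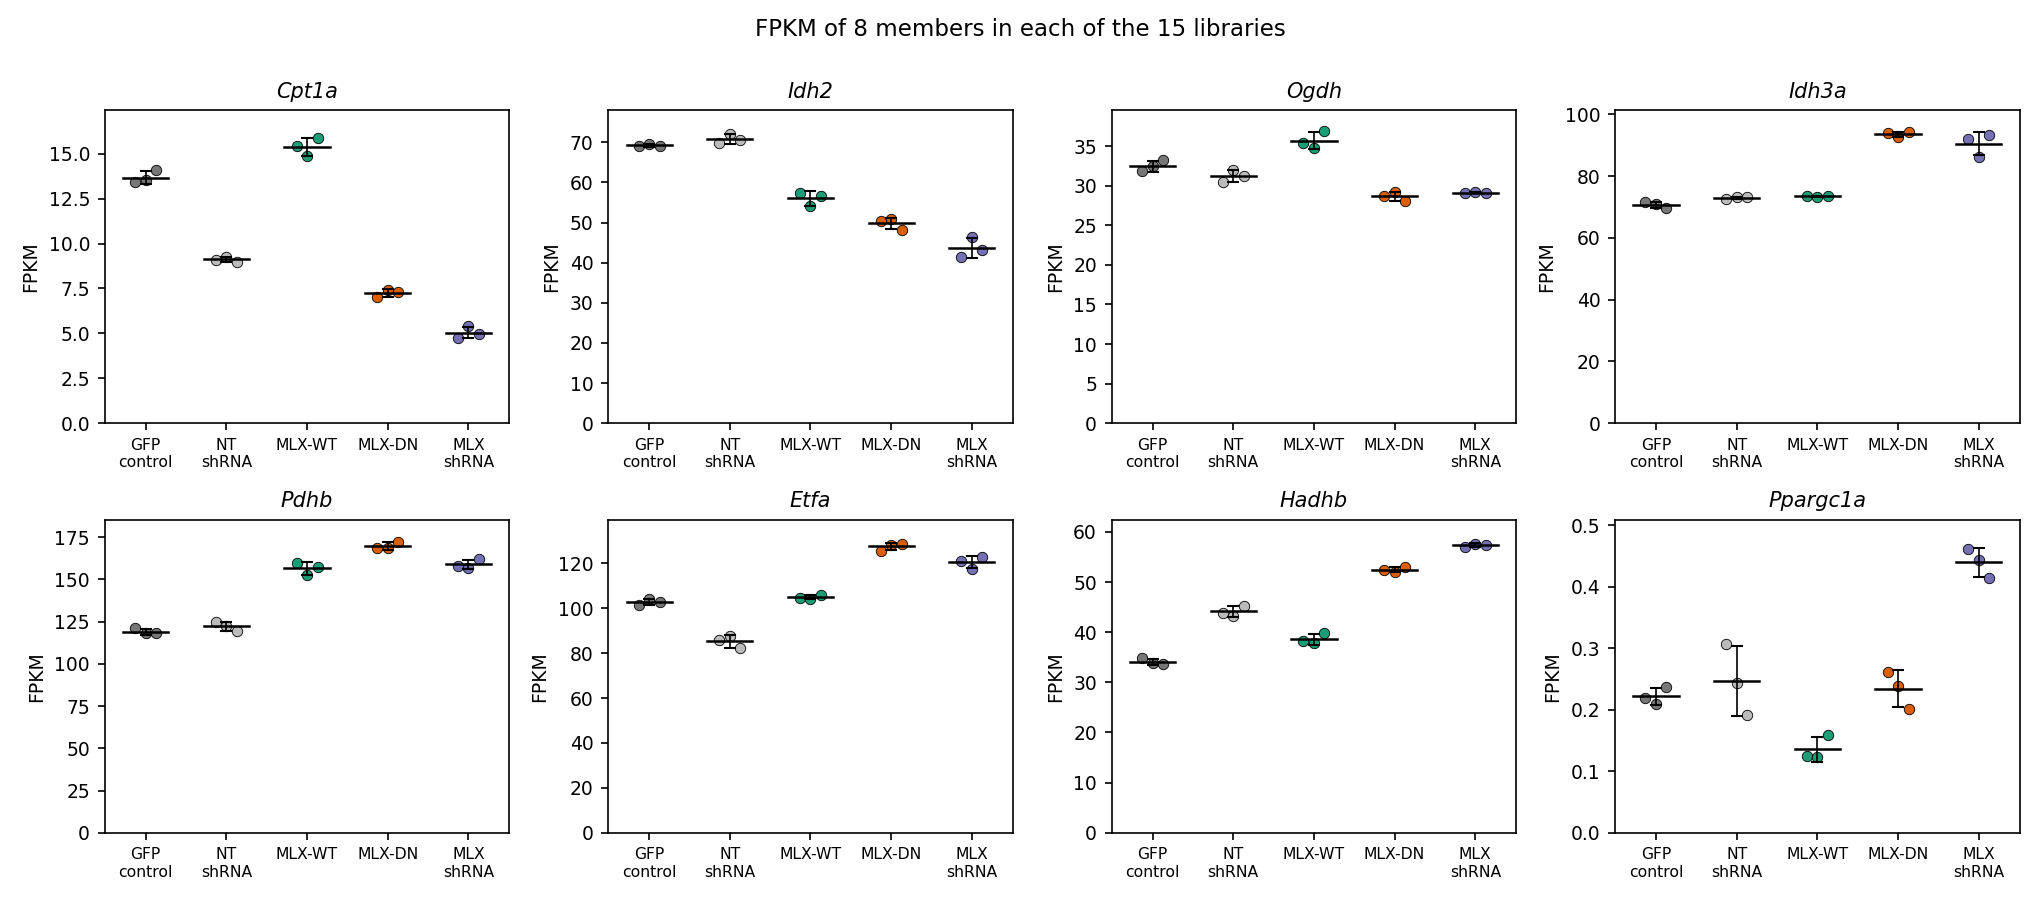
FPKM (y axis) of 8 of the genes in each of the 15 libraries (points), with the mean and SD of each group of 3. Cpt1a runs from 15.4 FPKM with MLX-WT to 5.05 with MLX shRNA, Idh2 is lower and Pdhb higher with every MLX construct than in both controls, and Ppargc1a is under 0.5 FPKM in every library.

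MLX-DN was compared with MLX-WT directly, since both raise Mlx RNA and the comparison uses no control. Of the citric acid cycle enzymes 12 were higher with MLX-DN and 5 lower, where 33.2% of all tested genes were higher and 38.9% lower. The largest differences were Dld (0.49), Suclg2 (-0.35) and Idh3a (0.34; adjusted p = 4.17e-09, 9.65e-08 and 7.78e-09). Of the beta-oxidation enzymes 4 were higher and 5 lower (6 and 5 after quantile normalization, for which the shares of all genes were not counted). The higher 4 were Hadhb (0.42), Decr1 (0.30), Etfa (0.28) and Hadha (0.23). The lower 5 were Cpt1a, Etfb (-0.43), Hadh (-0.26), Eci1 (-0.16) and Acadvl (-0.11). The medians were 0.08 and 0.01, beside -0.02 over all genes.

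The effects of MLX shRNA and MLX-DN, each against its own control, were compared by the difference of the 2 effects. Of the 35 enzymes 13 had a higher effect with MLX shRNA and 11 a lower one, where 42.8% of all tested genes were higher and 32% lower. For Cpt1a the difference of effects was 0.10 (95% interval -0.00 to 0.21), not called at an adjusted p of 0.0681, but called without MLX shRNA replicate 1 (adjusted p = 0.0201). For Sucla2 it was 0.01 and for Dlat -0.01 (95% intervals -0.08 to 0.09 and -0.08 to 0.06). For Etfb and Acads it was 0.85 and 0.84 (adjusted p = 1.87e-09 and 1.06e-08), with the genes called lower with MLX-DN and higher with MLX shRNA. The effect of MLX shRNA minus that of MLX-WT was higher in 17 of the 35 and lower in 7, where 35.9% of all genes were higher and 29.5% lower.

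A list of 72 genes of neighbouring steps in the same pathways held 68 tested ones. With MLX-WT 25 were higher and 29 lower, with MLX-DN 21 and 34, and with MLX shRNA 29 and 22. The shares of all genes are those given above for these comparisons, and the medians were -0.03, -0.08 and 0.02. The pyruvate dehydrogenase kinases, which switch the complex off, differed from one another. Pdk1 averaged 4.63 FPKM in the GFP control, 11.7 in NT shRNA, 12.2 under MLX-WT, 13.8 under MLX-DN and 11.5 under MLX shRNA. Its log2 differences were 1.101, 1.255 and -0.02, so that it was the GFP control that stood apart. Pdk4 stood at 15.8 FPKM in the GFP control, 5.68 in NT shRNA, 11.01 under MLX-WT, 5.77 under MLX-DN and 4.25 under MLX shRNA, with differences of -0.45, -1.20 and -0.30. Pdk3 fell with all 3 constructs (-0.35, -0.61 and -0.26), though it was 0.13 above NT shRNA with MLX-WT, and Pdk2 differed by -0.14, -0.08 (not called) and 0.20.

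Cd36, a fatty acid transporter, stood at 9.87 FPKM in the GFP control and at 0.581 in NT shRNA. It was at 1.78 under MLX-WT, 0.333 under MLX-DN and 0.557 under MLX shRNA, and its differences were -1.65, -2.35 and -0.02. Fabp3, a fatty acid binding protein of muscle, stood at 35.6 FPKM in the GFP control, 44.2 in NT shRNA, 72.3 under MLX-WT, 94.5 under MLX-DN and 46.5 under MLX shRNA. It rose by 1.36 on the log2 scale with MLX-DN, and by 1.065 against NT shRNA. Ucp2, a mitochondrial carrier, fell by 1.13 with MLX-WT (12.99 FPKM, against 30.8 in the GFP control and 20.99 in NT shRNA). Idh1, the cytosolic counterpart of Idh2, stood at 40.4 FPKM in the GFP control, 28.3 in NT shRNA and 16.7 with MLX shRNA, a fall of 0.70. Ldhb, a lactate dehydrogenase subunit, rose by 0.90 with MLX shRNA (11.4 FPKM, against 5.21 in NT shRNA and 12.6 in the GFP control). Hsd17b10, which acts on branched-chain intermediates, rose by 1.08 with MLX shRNA (67.3 FPKM), but only NT shRNA was low, at 30.8 against 59.0 to 67.3 in the other 4 groups.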

How the data were processed

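Poly(A) RNA of 15 C2C12 libraries was sequenced from a stranded kit, per the labels' protocols. The submitters' processing notes name CASAVA, STAR, TopHat2 and mm9, without versions. How reads were counted is not stated there. The table the authors deposited holds log2 values per gene with a minimum of exactly 1, read here as log2(FPKM + 2), so that FPKM is 2 to the value minus 2. Genes that reached an FPKM of 1 in 3 or more libraries were tested on the log2 scale, with limma 3.58.1 (R 4.3.3). The model had 1 mean per group, all 15 libraries, a variance trend and Benjamini-Hochberg adjustment over 11945 genes, with a threshold of 0.05. The 3 untested genes had an exact permutation test. Depth (37.0 to 82.5 M reads) was estimated from the steps between low values with GENCODE lengths for 15972 genes. At the estimated depths 68.1 to 71.9% of low values lay within 0.05 of whole reads, against 31.4 to 35.1% at nearby depths. The test was checked on simulated data with known changes. Over the comparisons it recovered 14 to 50% of 1.1-fold changes and 74 to 98% of 1.25-fold changes, and 1.695 to 6.875% of calls were false. Only 50 genes per fold size were changed in a simulation, far fewer than were called in the data.

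All 38 genes could be named. Values of every library were given for the regulators, for subunits of the complexes described and, per pathway and comparison, for the 4 called enzymes of largest change, and for other enzymes where space allowed. Of the neighbouring genes, the 3 called ones of largest change in each comparison and Pdk1 to Pdk4 were named. The genes, lists and tests were chosen with earlier results of these data known. Alternatives were the offset, the filter, scaling, the variance trend, the libraries fitted, a replicate block, the other control and leaving out each library. Promoter sequences came from RefSeq on GRCm38.p6, and no coordinates on mm9 were used.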

Additional observations from a re-analysis of the deposited data

Results flagged for a closer look

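A set of 9 enzymes was singled out because its members moved in opposite called directions with MLX-DN and with MLX shRNA, each against its own control, and the difference of the 2 effects (MLX shRNA minus MLX-DN, log2) was itself called by limma. Of all genes, 21.6% met the same conditions, beside these 9 of the 35 tested enzymes. The difference was positive for 7 of them, which were lower with MLX-DN and higher with MLX shRNA. Etfb (0.85, SE 0.0558, adjusted p = 1.87e-09), Acads (0.84, SE 0.0639, adjusted p = 1.06e-08) and Suclg2 (0.68, SE 0.0443, adjusted p = 1.79e-09) had the largest values. Cpt2 followed at 0.66 (adjusted p = 6.79e-09), Hadh at 0.66 (adjusted p = 6.99e-10), Eci1 at 0.37 (adjusted p = 0.000138) and Mdh2 at 0.29 (adjusted p = 5.36e-07). It was negative for Pdha1 (-0.69, adjusted p = 7.48e-12) and Fh1 (-0.28, adjusted p = 4.07e-06).

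The 2 effects use different controls, and for most of these genes the controls differed from each other. NT shRNA minus GFP control was -0.64 for Etfb, -0.39 for Acads, -0.34 for Suclg2, -0.33 for Cpt2, -0.42 for Hadh, -0.28 for Eci1 and 0.39 for Pdha1. It was 0.06 for Mdh2 and 0.03 for Fh1. Against the GFP control, which both comparisons then share, 5 of the 9 had 1 sign under both constructs. The values with MLX-DN and with MLX shRNA were -0.60 and -0.39 for Etfb, -0.50 and -0.16 for Suclg2, -0.48 and -0.25 for Hadh, -0.24 and -0.14 for Eci1, and 0.46 and 0.16 for Pdha1. The other 4 kept opposite signs, at -0.42 and 0.04 for Acads, -0.09 and 0.24 for Cpt2, -0.14 and 0.22 for Mdh2, and 0.13 and -0.12 for Fh1. The 0.04 of Acads was not called. The part of the controls in these differences of effects was not tested.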

How the results depend on the processing

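The labels do not tie libraries of different groups by number. Same-numbered libraries correlated at r = -0.0933 to 0.182 in their deviations (30 pairs, median 0.0290). Those of different number correlated at r = -0.276 to 0.243 (60 pairs, median -0.00531). Whether libraries of 1 number share more than the number is not stated, and the fit treats them as unpaired. The 35 tested enzymes in 7 comparisons gave 245 values, each with a status of called higher, called lower or not called. With the replicate number as a block, the status of all 245 and all 24 counts stayed as they were, for example 8 cycle enzymes higher with MLX-WT. Offsets of 0.1 and 1 also left the status of all 245 in place. No filter left 241, a filter at an FPKM of 5 left 244, no variance trend 243, only the compared groups 242, quantile normalization 228 and median centring 222. Median centring raised the cycle enzymes higher with MLX-WT from 8 to 13 and turned Cs to 0.0543, with no share of all genes counted after centring.

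The other control changed most. With MLX-WT the beta-oxidation enzymes went from 6 to 11 higher and from 7 to 3 lower, and with MLX-DN from 8 to 2 lower. With MLX shRNA they went from 11 to 7 higher and from 4 to 7 lower, and the cycle enzymes from 4 to 8 lower. The sign turned, with a call against either control or both, for 25 of 105 values. With MLX-WT these became 0.19 for Cs, -0.14 for Dld, 0.19 for Suclg1, 0.19 for Suclg2, -0.0149 for Dlat, 0.30 for Cpt2, -0.19 for Hadhb, 0.20 for Hadh, 0.47 for Etfb, 0.10 for Acaa2 and 0.20 for Eci1. With MLX-DN they became 0.0486 for Pcx, 0.24 for Cpt2, 0.0397 for Etfb, 0.12 for Acaa2 and 0.0375 for Eci1. With MLX shRNA they became -0.18 for Cs, -0.26 for Dlst, -0.16 for Suclg2, -0.23 for Mdh1, 0.16 for Pdha1, -0.14 for Pcx, -0.25 for Hadh, -0.39 for Etfb and -0.14 for Eci1. Idh3b, Pdp1 and Echs1 also changed sign with MLX shRNA, but were called against neither control. The cause was not tested.

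Leaving out 1 library at a time kept the status of 1834 of 1890 values, lost 37 calls and added 19. The cycle enzymes ranged from 7 to 9 higher and 4 to 6 lower with MLX-WT, 11 to 12 and 7 to 7 with MLX-DN, and 10 to 11 and 4 to 4 with MLX shRNA. The beta-oxidation enzymes ranged from 5 to 6 and 6 to 7, from 7 to 7 and 7 to 8, and from 10 to 11 and 4 to 4. Between the controls the beta-oxidation enzymes higher in NT shRNA ranged from 1 to 2, with Acadvl added without GFP control replicate 1 (adjusted p = 0.0132) or NT shRNA replicate 3 (adjusted p = 0.0316). The filter kept Cpt1b, Ppara and Ppargc1a out of the fit, although all their values lay above the 0.0182 to 0.0406 FPKM that 3 reads on 2000 bases are worth.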

Other observations

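Among the genes beside the pathways, Acacb encodes the acetyl-CoA carboxylase that makes malonyl-CoA at the outer mitochondrial membrane, where it holds back carnitine palmitoyltransferase 1. It was chosen after its values were seen, and it reached the filter of 1 FPKM only through MLX-DN and MLX shRNA, so its values are a description with no test. Acacb stood at 0.339 FPKM in the GFP control, 0.667 in NT shRNA, 0.849 under MLX-WT, 2.46 under MLX-DN and 1.99 under MLX shRNA (group means, n = 3). Its log2 differences from the own control were 0.28, 0.93 and 0.58 on the log2(FPKM + 2) scale, which shrinks differences at such low levels. The groups with the highest Acacb were MLX-DN and MLX shRNA, the groups with the lowest Cpt1a. Acacb was low in every group, and the comparisons of MLX-WT and MLX-DN share the GFP control libraries.

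Ptprc, a marker of blood cells, was at 4.39 to 4.74 FPKM in the MLX-DN libraries and at 0.00989 or less in the other 12, while the macrophage gene Emr1 was listed at 0 in all 15. Of the other 2 genes of the macrophage list, Cd68 had its lowest group mean with MLX-DN (0.871 FPKM, against 1.02 in the GFP control), and Csf1r was at 0.146 with MLX-DN and 0.147 in the GFP control.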
